A study of Homo sapiens with 22 samples.

Results

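LIN28B, TRIM71 and 5 let-7 target genes (HMGA1, HMGA2, IGF2BP1, IGF2BP2 and IGF2BP3) were followed through the reprogramming of human fibroblasts to pluripotency. They are 7 of the 33694 genes counted, taken by symbol from a given list, and each was present in the files and detected widely enough to be tested. Cells of BJ, an established line of human foreskin fibroblasts, were seeded in microfluidic chips and transfected on days 1 to 8 with unmodified mRNAs for POU5F1 (OCT4), SOX2, KLF4, MYC, LIN28 and NANOG under 5% oxygen, and the medium was switched to one for pluripotent cells from day 9. They were harvested on 8 days, D0 (not yet transfected), D3, D5, D7, D9, D11, D13 and D15, as 2 pools per day (A and B), each made of the cells of 4 chips and frozen as aliquots. RNA was counted in single cells by 3' droplet sequencing, as unique molecular identifiers (UMIs, 1 for each captured RNA molecule). There was no parallel culture without the factors, so D0 was the only reference and time in culture cannot be told apart from the factors.

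The let-7 microRNAs accumulate in differentiated cells, where they repress mRNAs that carry sites for their seed, the bases near their 5' end that pair with the target. LIN28A and LIN28B bind let-7 precursors and block their maturation, and are themselves let-7 targets. TRIM71 (LIN41) is an RNA-binding ubiquitin ligase of early embryos and pluripotent cells, HMGA1 and HMGA2 are architectural chromatin proteins, and the IGF2BPs bind mRNAs and affect their stability and translation. Here LIN28B and TRIM71 were at or near 0 in fibroblasts and were between 52.0 and 85.0 counts per 1000000 UMIs (CPM) on D15, IGF2BP1 and IGF2BP3 rose from a level already present, and HMGA1, HMGA2 and IGF2BP2 were not called different between D0 and D15. In the later cultures HMGA2 went the other way from 5 of the others: it was lower in cells with more POU5F1 RNA.

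The members share sites for 1 seed. The mature let-7 sequences of RefSeq (GRCh38.p14) are shown with the seed, bases 2 to 8, in capitals.

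hsa-let-7a-5p: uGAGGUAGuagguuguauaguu
hsa-let-7b-5p: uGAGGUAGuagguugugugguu
hsa-let-7c-5p: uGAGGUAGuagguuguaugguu
hsa-let-7d-5p: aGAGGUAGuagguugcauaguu
hsa-let-7e-5p: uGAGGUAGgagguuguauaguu
hsa-let-7f-5p: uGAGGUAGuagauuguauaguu
hsa-let-7g-5p: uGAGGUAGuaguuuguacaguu
hsa-let-7i-5p: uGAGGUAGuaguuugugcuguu
hsa-miR-98-5p: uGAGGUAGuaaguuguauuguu

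All 9 have the same seed, so a match to it cannot name the family member that would bind. Seed matches were searched on the sense strand of the 3' untranslated region (UTR) of 1 transcript per gene (MANE Select, GENCODE 44, GRCh38), as CTACCTCA (the 8mer), CTACCTC or TACCTCA, with overlapping matches counted once. The 7 UTRs, each within the last exon, held 30 matches in all. There were 8 in TRIM71 (chr3:32891812-32897824), 7 in HMGA2 (chr12:65963293-65966291), 5 in LIN28B (chr6:105078784-105083332), 5 in IGF2BP1 (chr17:49049445-49056145), 3 in IGF2BP2 (chr3:185643130-185645530), and 1 each in HMGA1 (chr6:34244885-34246231) and IGF2BP3 (chr7:23310209-23312361). At least 1 match was found in 16% of the 18768 UTRs searched. UTRs of similar length were compared with each member's own, which was itself counted among them. At least as many matches were found in 0.102% for TRIM71, 0.0421% for HMGA2, 0.124% for LIN28B, 0.643% for IGF2BP1 and 0.311% for IGF2BP2. The values were 14.9% for HMGA1 and 20.3% for IGF2BP3. For TRIM71 (981 UTRs) and HMGA2 (2374 UTRs) the share is the member's own UTR alone. These genes were listed as let-7 targets, so that they hold matches is not a result. The 12 8mers and the only match of HMGA1 are shown 5' to 3' with the 14 bases before them and the match in capitals, because they mark the 2 extremes of the set: several 8mers in TRIM71 and no 8mer in HMGA1.

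LIN28B, chr6:105078813-105078834: cccggttgcaaagtCTACCTCA
LIN28B, chr6:105081422-105081443: tttacagcaaaaggCTACCTCA
TRIM71, chr3:32891969-32891990: acattgcttaagtcCTACCTCA
TRIM71, chr3:32892049-32892070: gtgataatttctatCTACCTCA
TRIM71, chr3:32895806-32895827: cttttgctgagtttCTACCTCA
TRIM71, chr3:32895829-32895850: ttgtggcaagtcatCTACCTCA
HMGA2, chr12:65963299-65963320: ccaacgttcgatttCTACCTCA
IGF2BP1, chr17:49051062-49051083: gtgtgcgaagtaaaCTACCTCA
IGF2BP1, chr17:49053699-49053720: agcagtgctagtaaCTACCTCA
IGF2BP1, chr17:49054353-49054374: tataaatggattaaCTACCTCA
IGF2BP2, chr3:185644220-185644241: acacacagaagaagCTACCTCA
IGF2BP3, chr7:23311795-23311816: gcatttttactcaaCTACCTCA
HMGA1, chr6:34245830-34245851: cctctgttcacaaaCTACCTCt

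IGF2BP2 and IGF2BP3 lie on the minus strand and the other members on the plus strand. The counts do not measure mature let-7, and which UTR ends the cells used was not tested.

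After cells with fewer than 1000 genes or over 10% mitochondrial UMIs were left out, 41975 of 44197 barcodes remained, 571 to 6142 per pool, with 33181614 to 180056814 UMIs per pool and medians of 23717 to 80168 UMIs per cell. Any 2 libraries shared at most 39 kept barcodes, and no shared barcode had the same total. Markers of the starting and the end cells differed between D0 and D15. The 12 pluripotent markers summed to 5.99 and 5.88 CPM in pools A and B of D0 and to 3568 and 3279 on D15. The 12 fibroblast markers summed to 4758 and 4953 CPM on D0 and to 911 and 1083 on D15, but did not fall evenly. Their sums were 2943 and 2595 CPM on D3, 6384 and 3816 CPM on D5, and 2750 and 5238 CPM on D7. Markers of other cell types (blood, endothelium, liver, epidermis, neural) summed to 2.72 and 2.64 CPM on D0, 24.9 and 20.2 CPM on D9, and 10.2 and 9.52 CPM on D15. The 1 of them that could be tested, AFP, a protein of fetal liver, was called higher on D15 than on D0 (log2 fold change 4.62), with called rises up to D5 and a called fall between D9 and D11. The sum of the 8 mesendoderm markers, genes of early endoderm and mesoderm, changed over the time course. It was 0.138 and 0.143 CPM on D0, 12.7 and 15.8 CPM on D9, 202 and 151 CPM on D11, and 91.4 and 127 CPM on D15. MIXL1 was the largest part of it on D9 (8.82 and 10.6 CPM) and CER1 on D15 (51.4 and 82.7 CPM). The 3 of these markers that could be tested were called higher on D15 than on D0. The part of either list in the levels of the members was not tested.

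Aliquots of the same pool were not alike in the 6 pools captured as 2 aliquots. On D9, LIN28B stood at 15.9 and 5.58 CPM in the aliquots of pool A and at 18.3 and 6.69 CPM in those of pool B. TRIM71 stood at 51.4 and 18.2 CPM in the aliquots of pool A on that day. HMGA1 went the other way there, with 1288 and 1860 CPM in pool A and 1218 and 1921 CPM in pool B. A ratio of up to 2.93 (LIN28B in pool B of D7) was thus seen between captures of the same pool. On D3 and D13 the pools themselves stood apart, with HMGA1 at 1534 and 699 CPM on D3 and at 2265 and 1092 CPM on D13. What caused these differences was not tested.

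**Figure D1:**
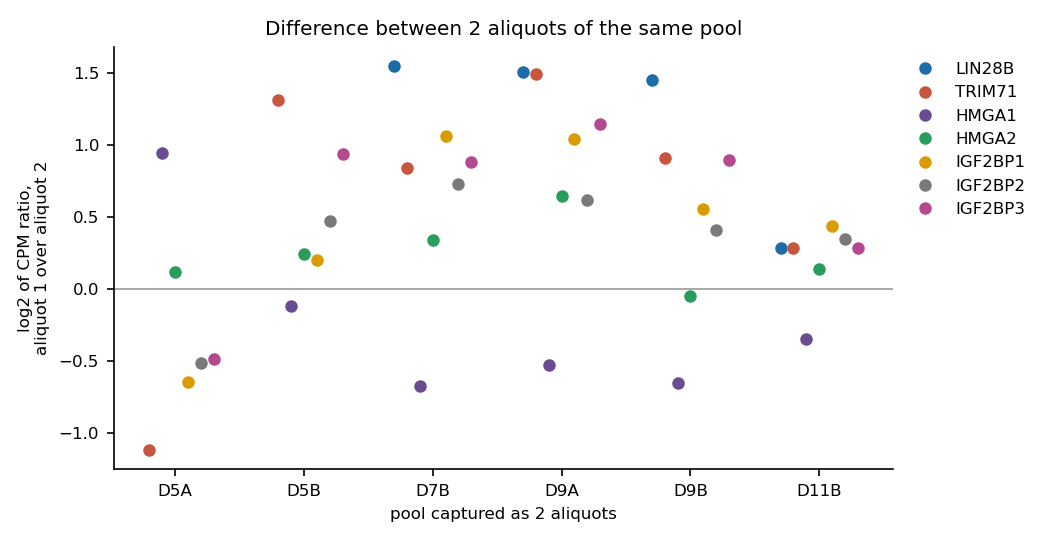
The log2 ratio of CPM between aliquot 1 and aliquot 2 of each of the 6 pools captured as 2 aliquots is shown on the y axis for each gene (colours), by pool on the x axis. LIN28B on D5 is left out, at 0 to 3 UMIs per aliquot. From D7 on, HMGA1 lies below 0 and LIN28B, TRIM71, IGF2BP1, IGF2BP2 and IGF2BP3 lie above 0 in all 4 pools.

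LIN28B was absent from the counts of fibroblasts and present in both pools of D15. No UMI of LIN28B was found on D0 in either pool, and 3 and 10 UMIs were found on D3 and 2 and 4 on D5 (pools A and B). Its level was 0.925 and 0.548 CPM on D7, 6.70 and 11.9 CPM on D9, 19.5 and 26.1 CPM on D11, 28.5 and 57.7 CPM on D13, and 60.2 and 52.0 CPM on D15. The pools of neighbouring days did not overlap from D5 to D13, and those of D13 and D15 did. A count of 0 over both pools of D0 allows 3 UMIs, 0.00956 CPM, so LIN28B was at least 5731-fold higher on D15 (5369 UMIs in both pools, 54.8 CPM). In such sums of cells, fewer cells of a type and less RNA per cell cannot be told apart.

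TRIM71 left the lowest counts on an earlier day than LIN28B. It had 2 and 0 UMIs in the pools of D0 and 3 and 8 on D3, and then 2.71 and 2.98 CPM on D5 (231 and 105 UMIs) and 8.64 and 7.07 CPM on D7. On D9 it stood at 21.8 and 26.9 CPM, on D11 at 28.6 and 37.0 CPM, on D13 at 39.5 and 72.1 CPM, and on D15 at 85.0 and 63.7 CPM. Neighbouring days did not overlap up to D13, and D13 and D15 did. The ratio of D15 to D0 rests on 2 UMIs and was 11127, with a 95% counting interval from 3079 to 91900.

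**Figure D2:**
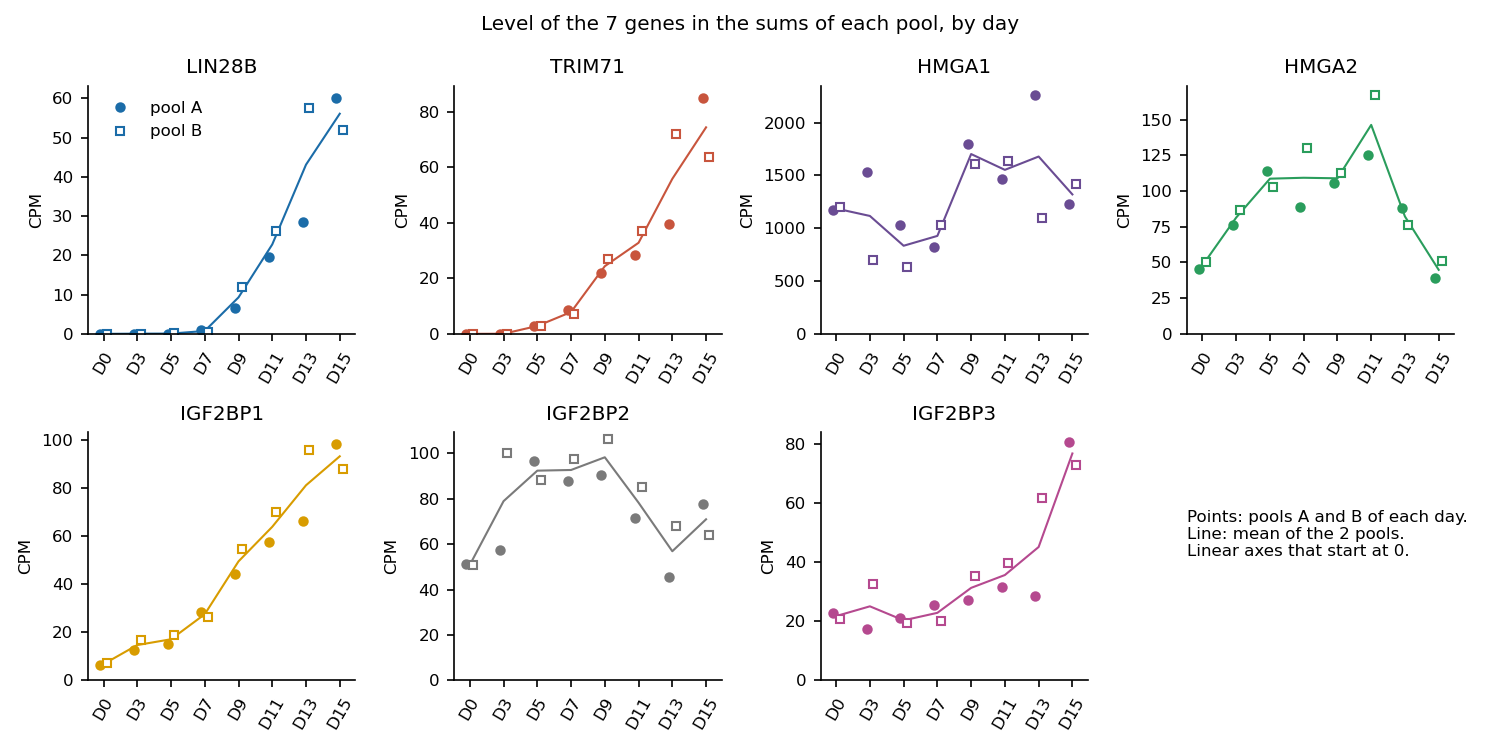
The level of each of the 7 genes in CPM (y axis, linear from 0) is shown for pools A (filled circles) and B (open squares) of each day of harvest (x axis), with a line through the mean of the 2 pools. LIN28B and TRIM71 are near 0 until D5 and D3 and reach 52.0 to 85.0 CPM on D15, while HMGA2 is highest on D11.

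Differences between days were tested by the quasi-likelihood method of edgeR on UMIs summed per pool, with all 16 pools in 1 fit. A gene was called at a Benjamini-Hochberg adjusted p below 0.01 over all 12794 genes tested and a log2 fold change beyond 0.25. Between D0 and D3, 1 of the 7 members was called, where 25.6% of all genes were. In that interval 5 members had an unadjusted p below 0.05 (49.1% of all genes did) and DESeq2 called 3 (34.1%). With only the 4 pools of these days 0 members were called, but so were 0 of all genes, so that fit cannot decide about the members. The 1 call was also lost without pool A or B of D0 or pool B of D3, which leaves 1 pool for a day. From D3 to D5 it was 1 of 7 against 3.56% of all genes, from D5 to D7 it was 0 by edgeR against 2.06% (3 members at an unadjusted p below 0.05, where 16.1% of all genes were, and 2 called by DESeq2, which called 4.77%), and from D7 to D9 it was 2 of 7 against 7.37%. By edgeR, 0 members were called from D9 to D11 (4.09% of all genes), from D11 to D13 (0.117%) or from D13 to D15 (0.086%). At an unadjusted p below 0.05 the members in these intervals numbered 1, 3 and 1, against 24.2%, 16.2% and 23.2% of all genes. DESeq2 called 0, 1 and 1 members, against 9.36%, 3.70% and 5.11% of all genes.

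TRIM71 rose from D3 to D5, by a log2 fold change of 5.90 (standard error 0.50, edgeR adjusted p = 1.5e-05), an interval in which LIN28B stayed at 2 to 10 UMIs per pool. Both genes had UMIs on D3, and from D0 to D3 LIN28B, on 3 and 10 UMIs, was called by DESeq2 (adjusted p = 0.0019) but not in the main edgeR fit (adjusted p = 0.025). By edgeR it was called with no gene filter (adjusted p = 0.0023) and with only aliquot 1 of the split pools (adjusted p = 0.0074). From D5 to D7 the log2 fold change of TRIM71 was 1.47 (adjusted p = 0.031, edgeR) and that of LIN28B was 3.82 (adjusted p = 0.014), short of the call, although DESeq2 called both. With no gene filter edgeR called both (adjusted p = 0.0017 for TRIM71 and 7.0e-05 for LIN28B), as it did on leaving out either pool of D13. With only aliquot 1 it called LIN28B (adjusted p = 0.0042). LIN28B rose from D7 to D9 by 3.61 (standard error 0.48, edgeR adjusted p = 5.0e-04), and TRIM71 by 1.59 (standard error 0.33, edgeR adjusted p = 0.0067). The call of LIN28B was lost without pool B of D7 (adjusted p = 0.013). The call of TRIM71 rested on more: it was lost with only aliquot 2 of the split pools (1.33, adjusted p = 0.038) and on leaving out any single pool of D5, D7, D9, D11 or D15, with adjusted p from 0.011 to 0.080. From D9 to D11, LIN28B differed by 1.27 (adjusted p = 0.090) and TRIM71 by 0.41 (adjusted p = 0.47), and the value of TRIM71 was −0.28 with only aliquot 1.

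Over the whole course, from D0 to D15, 4 of the 7 members were called, all of them higher, where 53.4% of all genes were called in either direction, 26.8% higher and 26.7% lower. The members were chosen with results of these data known, so nothing about the set is read from this count. LIN28B (edgeR adjusted p = 7.9e-08) and TRIM71 (edgeR adjusted p = 4.7e-09) were among them, with the folds given by their counts above. The median log2 fold change of the members was 1.75 beside 0.01 for all genes tested, and nothing about the set is read from it either.

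IGF2BP1, a fetal mRNA-binding protein, was already counted on D0 and rose. It was at 6.46 and 7.07 CPM on D0, 12.5 and 16.9 CPM on D3, 15.2 and 19.1 CPM on D5, and 28.7 and 26.5 CPM on D7. It reached 44.4 and 54.8 CPM on D9, 57.8 and 70.2 CPM on D11, 66.5 and 96.1 CPM on D13, and 98.7 and 88.1 CPM on D15. The pools overlapped only between D3 and D5, D11 and D13, and D13 and D15. From D0 to D15 its log2 fold change was 3.72 (standard error 0.28, edgeR adjusted p = 1.9e-07). From D0 to D3 it was 1.10 (standard error 0.26, edgeR adjusted p = 0.0049). That call was lost without pool A or B of D0 (1.06 and 1.14) and without pool B of D3 (0.80). It was also lost with only aliquot 1 (adjusted p = 0.012) and with only the pools of these days (adjusted p = 0.035), where 0 of all genes were called.

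IGF2BP3, its paralog, was highest at the end. It ranged from 17.4 to 32.6 CPM over the 8 pools of D0 to D7. It then stood at 27.3 and 35.3 CPM on D9, 31.5 and 39.7 CPM on D11, 28.5 and 61.6 CPM on D13, and 80.6 and 72.7 CPM on D15. The pools of D15 lay above all others. The log2 fold change from D0 to D15 was 1.75 (standard error 0.38, edgeR adjusted p = 0.0014), and without pool B of D0 it was 1.67 (adjusted p = 0.017). No interval between neighbouring days was called.

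IGF2BP2, the third paralog, had no called change. It was at 51.1 and 50.7 CPM on D0, between 57.5 and 106 CPM in the pools of D3 to D11, at 45.7 and 68.0 CPM on D13 and at 77.8 and 64.1 CPM on D15. Its log2 fold change from D0 to D15 was 0.42 (standard error 0.28, adjusted p = 0.21). The 3 IGF2BPs therefore had different courses by their values, but the difference between them was not tested.

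HMGA2 was highest in the middle of the course. It stood at 45.3 and 50.6 CPM on D0, 76.4 and 86.5 CPM on D3, 114 and 103 CPM on D5, and 88.8 and 130 CPM on D7. It was at 105 and 113 CPM on D9, 126 and 167 CPM on D11, 87.9 and 76.5 CPM on D13, and 38.9 and 50.8 CPM on D15. Every pool of D3 to D13 lay above those of D0 and D15, and the pools of D0 and D15 overlapped. No single step was called in the main edgeR fit: the log2 fold change was 0.74 from D0 to D3 (standard error 0.20, adjusted p = 0.012), −0.77 from D11 to D13 (adjusted p = 0.071) and −0.85 from D13 to D15 (adjusted p = 0.042), and DESeq2 called all 3. By edgeR the step from D0 to D3 was called with the pool letter as a block (0.73, adjusted p = 0.0045) and with no gene filter (0.89, adjusted p = 0.0044). It was also called on leaving out either pool of D7. The step from D13 to D15 was called with no gene filter (−1.01, adjusted p = 0.0087). From D0 to D15 it was −0.16 (standard error 0.20, adjusted p = 0.52).

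HMGA1 had pools of the same day that lay far apart. It ranged from 637 CPM (pool B of D5) to 2265 CPM (pool A of D13). It was at 1177 and 1196 CPM on D0 and at 1226 and 1414 CPM on D15, a log2 fold change of 0.09 (standard error 0.32, adjusted p = 0.82) whose sign turned without pool B of D15. HMGA1 has near-identical processed pseudogenes, so its counts are uncertain in that respect.

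Except for HMGA1, shares of cells broadly followed the levels. Before counting, cells were thinned at random to 5000 UMIs each, because depth differed between days. On D0, 0 of 6142 and 0 of 4634 cells had a UMI of LIN28B, which allows shares of up to 0.0488% and 0.0647%. The share was 2.87% and 5.14% on D9, 7.62% and 10.9% on D11, 12.7% and 23.6% on D13, and 21.4% and 21.8% on D15, and these shares are set by the depth: on D15 they were 43.3% and 37.5% at 10000 UMIs and 89% and 70.8% without thinning. TRIM71 was seen in 1 and 0 cells on D0, in 0.849% and 0.859% on D5, 3.65% and 2.48% on D7, 7.98% and 11.9% on D9, and 31.0% and 26.9% on D15. On D5 this compares with 0 of 1767 and 0 of 815 cells for LIN28B, which allows up to 0.170% and 0.368%.

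IGF2BP1 was found in 3.21% and 3.95% of cells on D0 and in 36.6% and 36.1% on D15, and IGF2BP3 in 10.7% and 9.17% on D0 and in 33.3% and 29.2% on D15. IGF2BP2 was found in 21.7% and 22.6% on D0 and in 30.6% and 28.6% on D15. HMGA2 was found in 19.3% and 21.5% on D0, 45.7% and 49.8% on D11, and 15.4% and 21.9% on D15. The shares of D15 lay above those of D0 in both pools for 5 members, all except HMGA1 (89.6% to 99.5% in all pools) and HMGA2. For HMGA1 share and level went apart on D13, with 2265 CPM and 90.5% in pool A and 1092 CPM and 96.8% in pool B. A missing UMI at this depth does not show that a cell lacked the RNA.

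**Figure D3:**
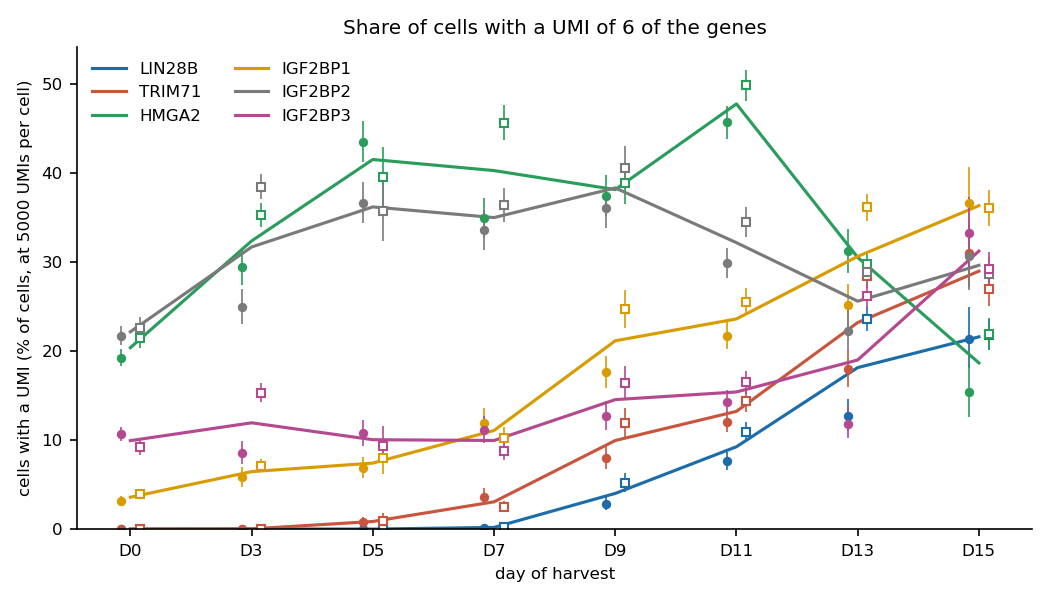
The share of cells with at least 1 UMI (y axis, percent, cells thinned to 5000 UMIs) is shown by day of harvest (x axis) for 6 genes, with pools A (filled) and B (open) and exact 95% binomial intervals that cover counting error only. Lines join the means of the 2 pools, and HMGA2 falls from 45.7% and 49.8% on D11 to 15.4% and 21.9% on D15 while the other 5 end above D0.

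LIN28B and TRIM71 were counted in overlapping sets of cells. In cells thinned to 10000 UMIs, both were found in 4.82% of cells of pool A of D11, where the product of their shares was 2.96%, and in 6.78% of pool B, where it was 4.57%. On D15 the values were 23.6% and 22.3% in pool A and 17.8% and 16.3% in pool B. The ratio of the shares to their product was larger on D11 than on D15, and it was not tested.

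Cells of D9 to D15 were then divided by POU5F1 RNA, a gene that is no member, to describe how the members differed between cells with more and with less of it. POU5F1 mRNA was transfected until day 8, and its UMIs were not separated into transfected and cellular molecules, so a UMI on D9 can be of either kind. After thinning to 5000 UMIs, cells with at least 1 POU5F1 UMI were 738 of 1742 in pool A of D9 and 516 of 571 in pool A of D15, and the other group had 55 cells there. The groups are called with and without POU5F1 below, but most cells of the group without had a POU5F1 UMI at full depth. None was found at full depth in 368 of the 1004 cells without in pool A of D9, and in 2 of the 512 in pool A of D11. Before thinning, 63.3% (pool A of D9) to 99.6% (pool A of D11) of the cells without had a POU5F1 UMI, among them 51 of the 55 in pool A of D15. At full depth POU5F1 stood at 36.7 to 242 CPM in the cells without and at 748 to 1704 CPM in those with, a difference that the division itself made. Free RNA in the droplets adds UMIs to every cell. It was not measured here, and its part in the values of either group was not tested. UMIs were summed per pool and group and compared with the pool as a block (8 pools, D9 to D15). The groups differed in other ways. Cells with POU5F1 had higher median UMI counts in all 8 pools (59546 against 44119 in pool A of D11). The other 11 pluripotent markers summed to 1557 to 2854 CPM with and 217 to 829 CPM without POU5F1, and all 11 were called higher. The 12 fibroblast markers summed to 503 to 2245 CPM with and 3077 to 8903 CPM without, and 11 were called lower. Markers of other cell types summed to 4.23 to 18.3 CPM with and 5.24 to 30.9 CPM without. The sum of the 8 mesendoderm markers turned direction within these days. With and without POU5F1 it was 20.6 and 5.48 CPM in pool A and 24.1 and 4.30 CPM in pool B of D9. On D15 it was 53.4 and 521 CPM in pool A and 89.1 and 651 CPM in pool B. None of the 3 that could be tested was called over the 8 pools. By this sum the group without POU5F1 differed between D9 and D15. A sum does not show that its genes moved together: in whole pools MIXL1 led it on D9 and CER1 on D15. Of the members, 6 of 7 were called, 5 higher and 1 lower, where 57.9% of the 12793 genes tested were called, 28.2% higher and 29.7% lower. Doublets were not removed, and their part was not tested.

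HMGA2 was the member that was lower in cells with POU5F1. Its level with and without POU5F1 was 79.2 and 129 CPM in pool A and 86.9 and 148 CPM in pool B of D9, and 112 and 215 CPM in pool A and 111 and 319 CPM in pool B of D11. On D13 it was 49.0 and 213 CPM in pool A and 67.1 and 183 CPM in pool B, and on D15 it was 29.6 and 144 CPM in pool A and 42.3 and 170 CPM in pool B. The highest value with POU5F1 lay below the lowest without. The log2 difference was −1.42 (standard error 0.18, edgeR adjusted p = 1.2e-04), with the same sign in 8 of 8 pools. It moved with the fibroblast markers, and their part in it was not tested.

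LIN28B and TRIM71 were higher in cells with POU5F1 in 8 of 8 pools. LIN28B was at 12.0 with and 1.84 CPM without in pool A and at 18.1 and 3.29 CPM in pool B of D9, at 21.3 and 7.42 CPM and at 33.4 and 6.35 CPM on D11, at 34.3 and 10.2 CPM and at 59.8 and 33.2 CPM on D13, and at 61.7 and 42.3 CPM and at 53.0 and 39.1 CPM on D15. On D15 LIN28B stood higher in the group without, most of whose cells had a POU5F1 UMI before thinning, than it did with POU5F1 on D9 and D11. The sum of the mesendoderm markers was also higher in that group on D15 than on D9, and the part of these markers in the level of LIN28B was not tested. TRIM71 without POU5F1 stayed between 6.61 and 31.4 CPM, against 31.4 to 90.4 CPM with it. The log2 differences were 1.63 for LIN28B (standard error 0.27, edgeR adjusted p = 4.1e-04) and 1.83 for TRIM71 (standard error 0.20, edgeR adjusted p = 7.1e-05).

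**Figure D4:**
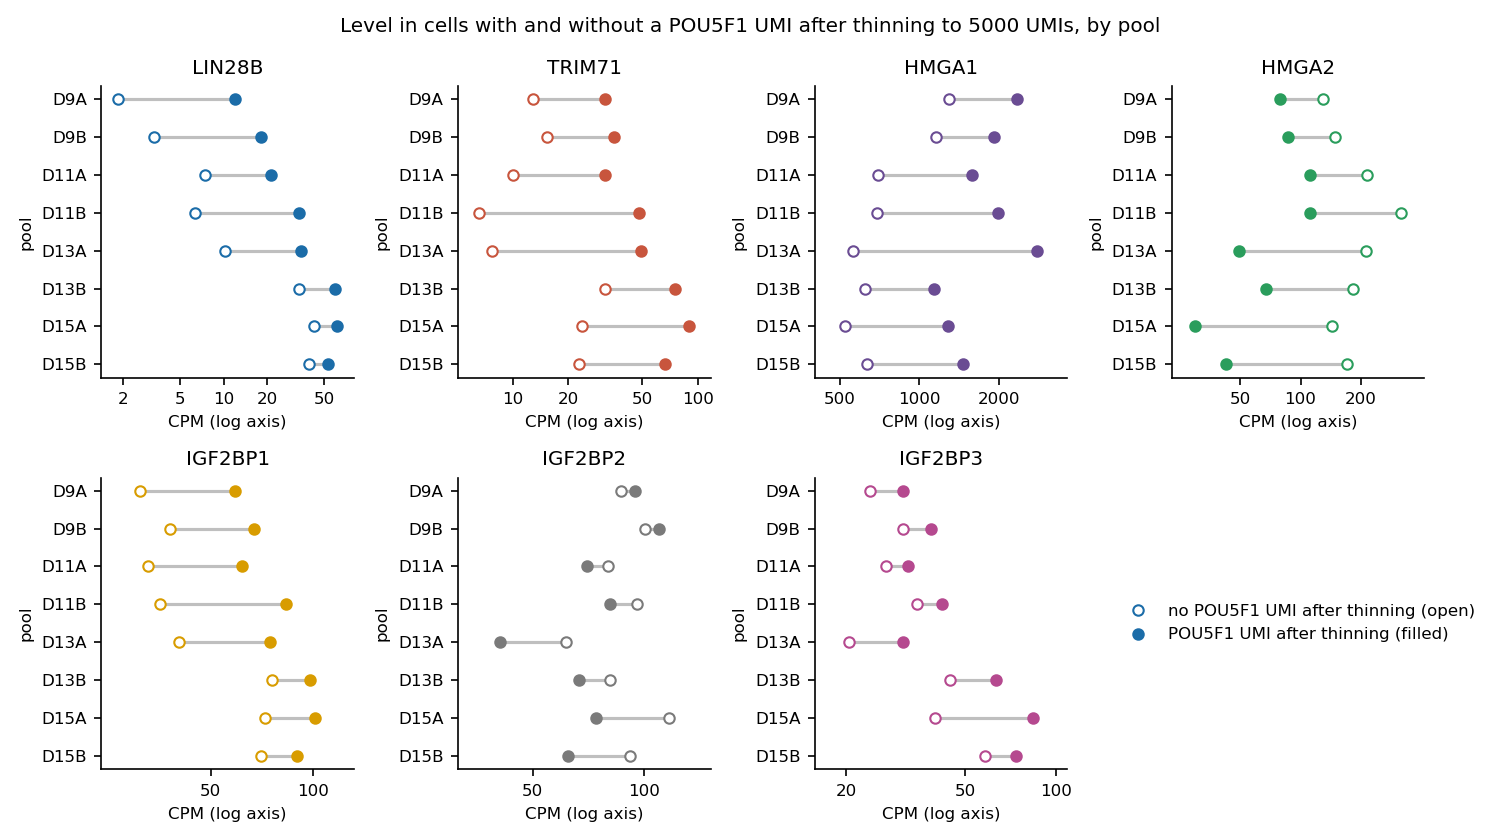
The level in CPM (x axis, log scale) in cells with a POU5F1 UMI after thinning to 5000 UMIs (filled) and without (open) is shown for each of the 8 pools of D9 to D15 (y axis), 1 panel per gene, with a line joining the 2 groups of a pool. HMGA2 is lower with POU5F1 in all 8 pools and LIN28B, TRIM71, HMGA1, IGF2BP1 and IGF2BP3 are higher in all 8, while IGF2BP2 changes sign after D9.

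HMGA1 was higher in cells with POU5F1, unlike HMGA2. It was at 1134 to 2796 CPM with and 525 to 1294 CPM without, higher in 8 of 8 pools, and the log2 difference was 1.29 (standard error 0.16, edgeR adjusted p = 1.0e-04). IGF2BP1 was at 59.1 to 101 CPM with and 31.1 to 75.4 CPM without (0.80, standard error 0.09, edgeR adjusted p = 7.6e-05). IGF2BP3 was at 30.9 to 84.2 CPM with and 20.5 to 57.9 CPM without (0.51, standard error 0.10, edgeR adjusted p = 0.0011), a call lost without the block on the pool (adjusted p = 0.028). IGF2BP2 was not called (−0.23, standard error 0.09, adjusted p = 0.041): it was slightly higher with POU5F1 in both pools of D9 and lower in the 6 others.

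The difference between the groups was compared between D13 with D15 and D9 with D11. By edgeR, 0 members and 0% of the 12793 genes were called in this interaction. At an unadjusted p below 0.05 there were 5 members and 2596 genes (20.3%), and DESeq2 called 1 member and 548 genes (4.28%). LIN28B had a log2 interaction of −1.28 (standard error 0.33, adjusted p = 0.079), which DESeq2 called (adjusted p = 0.0091), and HMGA2 one of −0.89 (standard error 0.23, adjusted p = 0.081). For TRIM71 it was 0.19 (standard error 0.41, adjusted p = 0.84), for HMGA1 0.43, for IGF2BP1 −0.36, for IGF2BP2 −0.38 and for IGF2BP3 0.41.

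Within cells with POU5F1, D15 was compared with D9, a comparison added after the data were seen. There 1 of 7 members was called, where 9.98% of all genes were. LIN28B was higher on D15, with a log2 fold change of 1.98 (standard error 0.36, edgeR adjusted p = 0.0061), a call lost on leaving out any single pool of D9, D11 or D15 (adjusted p from 0.012 to 0.064). TRIM71 (1.28, adjusted p = 0.017), IGF2BP3 (1.24, adjusted p = 0.029) and HMGA2 (−1.16, adjusted p = 0.012) were not called by edgeR, and DESeq2 called these 3 as well, where it called 24.0% of all genes. HMGA1 differed by −0.59, IGF2BP1 by 0.64 and IGF2BP2 by −0.54, none of them called. The values of HMGA2 with POU5F1 did not overlap between D9 and D15. Within these cells 3 of 12 fibroblast markers (median log2 fold change −1.48) and the 1 tested marker of other cell types were called lower on D15. Called higher were 2 of 11 pluripotent markers (median 0.52) and 1 of 3 mesendoderm markers. Their part in the changes of the members was not tested.

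**Figure D5:**
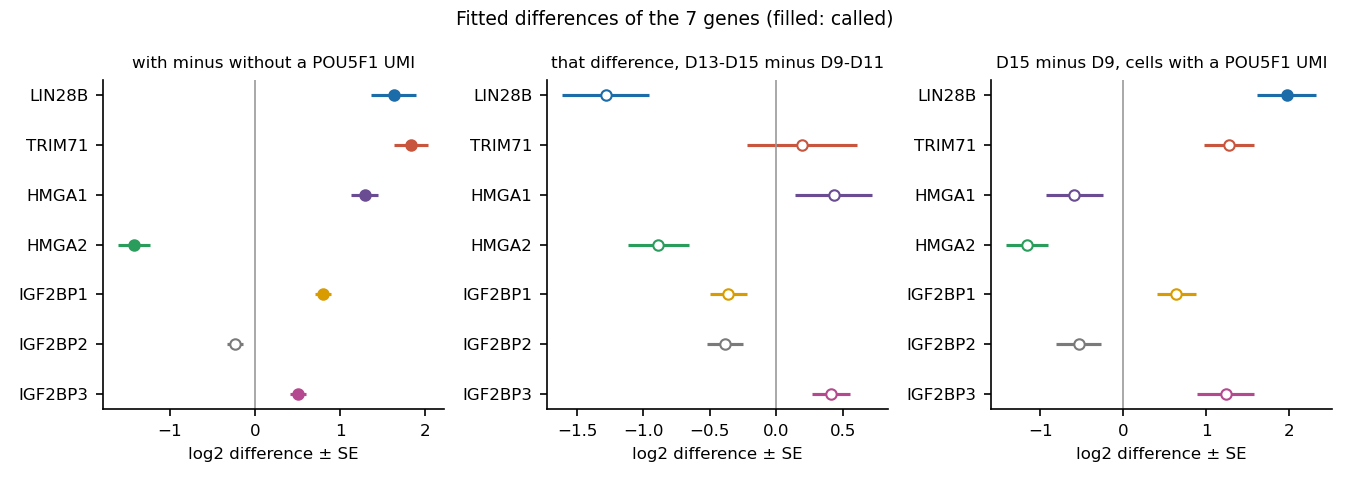
Log2 differences with their standard errors (x axis) are shown for the 7 genes (y axis) between cells with and without a POU5F1 UMI after thinning on D9 to D15 (left), for the change of that difference from D9 and D11 to D13 and D15 (middle), and between D15 and D9 within cells with a POU5F1 UMI (right). Filled points were called: 6 of 7 on the left, none in the middle and LIN28B on the right.

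The transfected relative of LIN28B, LIN28A, is the other LIN28 protein. It had 2 and 0 UMIs on D0, and stood at 14.5 and 65.1 CPM in the pools of D3 and at 182 and 258 CPM in those of D5. It was at 222 and 87.4 CPM on D7, 167 and 150 CPM on D9, 220 and 171 CPM on D11, and 149 and 536 CPM on D13. On D15, a week after the last transfection, it was at 553 and 321 CPM. The counts were not separated into transfected and cellular molecules. POU5F1 itself stood at 3.48 and 5.95 CPM in the pools of D5, at 40.2 and 31.5 in those of D7 and at 422 and 465 in those of D9.

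Some transcripts that contain let-7 genes were lower on D15 than on D0. MIRLET7BHG is the noncoding host of let-7a-3 and let-7b on chromosome 22. It was at 15.1 and 18.8 CPM on D0, between 14.2 and 16.5 CPM in the 6 pools of D3, D5 and D7, 8.44 and 8.07 CPM on D9, 6.81 and 4.38 CPM on D11, 4.32 and 1.81 CPM on D13, and 1.08 and 1.02 CPM on D15. From D0 to D15 its log2 fold change was −4.07 (standard error 0.36, edgeR adjusted p = 7.2e-07), and it was lower in cells with POU5F1 (log2 difference −2.13, edgeR adjusted p = 1.5e-04). MIR99AHG, the host of let-7c, was also lower on D15 (−2.01, edgeR adjusted p = 5.3e-06) but had no even course. It was at 4.21 and 4.12 CPM on D0, 1.27 and 1.25 CPM on D3, 3.06 and 3.93 CPM on D7, 1.99 and 2.03 CPM on D9, 3.10 and 2.97 CPM on D11, and 0.904 and 1.22 CPM on D15. The pools of D5 and D13 lay between 1.84 and 2.45 CPM. HUWE1, a ubiquitin ligase gene that holds let-7f-2 and miR-98, did not pass (0.03, adjusted p = 0.94). It was higher in cells with POU5F1 (log2 difference 0.34, edgeR adjusted p = 6.6e-04). In all, 2 of the 3 listed hosts that could be tested were called lower on D15, where 26.7% of all genes were, and by POU5F1 2 were called lower and 1 higher, where 29.7% and 28.2% were. WDR82, which holds let-7g, and the host of let-7i (RP11-631N16.2), found by position after the values were seen, were not called (adjusted p = 0.14 and 0.069). WDR82 went from 22.2 and 25.2 CPM on D0 to 41.3 and 35.4 CPM on D15, and RP11-631N16.2 from 3.98 and 4.44 to 2.41 and 1.99 CPM. Also found by position were RP11-2B6.2, which holds let-7a-1, let-7d and let-7f-1, and RP11-631N16.4, another transcript around let-7i. Both were too rare to be tested. They stood at 0.294 and 0.333 CPM and at 0.486 and 0.516 CPM on D0. On D15 they stood at 0.904 and 0.756 CPM and at 1.21 and 0.849 CPM. Levels of host transcripts do not give those of mature let-7.

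Of the 16 tested genes that process let-7 or act with it, 8 were higher and none lower on D15 than on D0, where 26.8% of all genes were called higher and 26.7% lower. LIN28A, XPO5, the nuclear export factor of microRNA precursors (2.81, adjusted p = 2.6e-07), and AGO2, which carries microRNAs to their targets (1.52, adjusted p = 0.0029), had the largest rises. DICER1, which cuts the precursors, rose by 1.40 (adjusted p = 0.0096). The list's median log2 fold change was 0.85, beside 0.01 for all genes. Between cells with and without POU5F1, 5 were higher and 2 lower (MSI2 with −0.83 and AGO3 with −0.51), where 28.2% of all genes were called higher and 29.7% lower.

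Of 28 other tested let-7 targets, 16 were higher and 3 lower on D15, where 26.8% of all genes were called higher and 26.7% lower, with a median log2 fold change of 0.95 beside 0.01 for all genes. The largest rises were those of MYCN, a relative of MYC (adjusted p = 2.8e-08), NR6A1, an orphan nuclear receptor (6.79), and CCND2, a cyclin (6.75). THBS1, a matrix protein (−2.82), CCND1, the other cyclin of the list (−1.10), and HRAS (−0.80) fell. Between cells with and without POU5F1, 13 were higher and 5 lower, led by MYCN (2.74) and THBS1 (−2.49), where 28.2% of all genes were called higher and 29.7% lower. The lists were chosen with results of these data known, and nothing particular to them is read from these counts. A let-7 seed match was found in the UTR of 28 of the 30 listed genes.

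Of 8 tested RNAs reported as clients of IGF2BPs or TRIM71, none was higher and 5 were lower on D15, where 26.7% of all genes were called lower, with a median log2 fold change of −2.76 beside 0.01 for all genes. Among them were CD44, a hyaluronan receptor (−5.60), CDKN1A, a cell cycle inhibitor (−4.21), EGR1, an immediate early factor (−3.44), and MBNL1, a splicing factor (−3.21). In cells with POU5F1, 7 were lower and none higher (29.7% of all genes were called lower), with IGF2 (−2.34), CDKN1A (−2.20) and CD44 (−2.12) in front. They moved the same way as the fibroblast markers, 10 of 12 of which were lower on D15, and the part of the members in this was not tested.

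The genes whose levels were most like those of each member were taken by Pearson's r of log2(CPM + 1) over the 16 pools, among 7052 genes with a mean of at least 10 CPM. For LIN28B they were DSG2 (r = 0.999), CDH1 (0.995) and ZIC2 (0.995), for TRIM71 PODXL (0.996), SALL4 (0.993) and RP11-469A15.2 (0.993), and for IGF2BP1 DNMT3A (0.994), ACVR2B (0.987) and SALL4 (0.986). For IGF2BP3 they were HTATSF1, ICE1 and TRIM37 (0.960 to 0.963). Likeness was lower for HMGA1 (GOLPH3L, HDAC5 and RTN3, 0.883 to 0.893), HMGA2 (SERTAD4, RBM3 and IER3, 0.851 to 0.866) and IGF2BP2 (CDV3, USP1 and CTDSPL, 0.808 to 0.827). Among the members, TRIM71 and IGF2BP1 were most alike (0.973), then LIN28B with IGF2BP1 (0.940) and with TRIM71 (0.938), while HMGA2 and LIN28B were unrelated in this sense (−0.06). The pools share the time course and the differences in capture, so these values describe and do not test.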

How the data were processed

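The authors aligned the reads and counted UMIs with Cell Ranger 2.2 on hg38 (GRCh38 annotation), and deposited raw counts per gene and barcode, without normalization, for 22 libraries. Whether the counting used strand is not given in the sources used here: antisense genes overlap LIN28B, HMGA2, IGF2BP1, IGF2BP2 and IGF2BP3. From these counts, barcodes were kept if they had 1000 or more genes and no more than 10% of UMIs from mitochondrial genes, aliquots were added per pool, and genes found in at least 5% of cells were tested with edgeR 4.0.16 (quasi-likelihood, TMM) in R 4.3.3. DESeq2 1.42.0 was an alternative. CPM are UMIs per 1000000 of the pool's total. No doublet caller was run. Pools come from separate chips of 1 cell line, so p-values between days measure the spread between such pools, differences between captures included. Between the POU5F1 groups, with the pool as a block, they measure the spread of the differences within pools.

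Tested on simulated counts, the comparison of D15 with D13 recovered 17 of 50 genes changed by a fold of 2 and 47 of 50 changed by a fold of 4, with 2 false calls among 12794 genes. The comparison by POU5F1 recovered 50 of 50 at a fold of 2. In both simulations all pools had the same profile apart from the changed genes, which were few and not among the rarest. In the data 57.9% of genes were called by POU5F1, so recovery and false calls there can differ from these values.

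The members, gene lists and comparisons were chosen with earlier results of these data known. The text names the members in every comparison, the 3 genes most like each, and from each list at most the 3 largest called rises and falls, along with transfected factors; DICER1, MBNL1 and values of uncalled hosts were added after they were seen. The values of 1 listed gene are not reported here. The alternatives were DESeq2, its size factors in edgeR, no gene filter, a block on the pool's letter, a fit to the compared pools alone, 2500 cells per day, no cell filter, each pool left out, other thinning depths and other limits for the POU5F1 groups. Chosen after the data were seen were the single aliquots, aliquots kept apart, the comparison within cells with POU5F1, and hosts found by position. Sequences came from RefSeq and GENCODE 44 on GRCh38.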

Additional observations from a re-analysis of the deposited data

How the results depend on the processing

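With 2 pools per day, changes of a fold of 2 between days are often missed, so the absence of a call is weak evidence. The pool letters were not used as pairs in the main fits. Over 28 pairs of days the correlation of the differences between A and B ran from −0.41 to 0.81 (median −0.03), and 10 were over 0.1. Whether the letters pair the pools of some days was not tested further. With the letter as a replicate block, 2 members were called from D0 to D3 and 4 genes from D13 to D15, and no other count of members between days changed.

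From D0 to D15, 4 members were called under each of the planned and added settings, except without pool B of D0, where 3 were. Between the POU5F1 groups, 6 were called under each setting, except 5 without the block on the pool. In the main fits 53.4% of all genes were called from D0 to D15 and 57.9% between the groups, and DESeq2 called 59.1% and 62.7%. Nothing particular to the members is read from these steady counts. The shares of 5 members were higher on D15 at each of 4 depths. The sign turned for HMGA1 from D0 to D15 with no gene filter (−0.13) and on leaving pools out (−0.027 to 0.20), for HMGA2 there on leaving pools out (−0.37 to 0.032), for TRIM71 in the interaction on leaving pools out (−0.053 to 0.57) and from D9 to D11 with aliquot 1 alone (−0.28). None of these was called.

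Members called by DESeq2 numbered 3 (D0 to D3), 2 (D5 to D7), 1 (D11 to D13), 1 (D13 to D15), 1 (interaction) and 4 (within cells with POU5F1). With no gene filter they numbered 3, 2 and 1 for D0 to D3, D5 to D7 and D13 to D15. They numbered 0 for D0 to D3 with only the 4 pools, 1 for D5 to D7 with aliquot 1 alone and 1 for D7 to D9 with aliquot 2 alone. Leaving out pools gave 0 to 2 (D0 to D3, D5 to D7 and D7 to D9) and 0 to 4 members (within cells with POU5F1).

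Counts over all genes moved more. DESeq2 called 889, 610, 1654, 1198, 473 and 654 genes in the intervals from D3 to D15, 548 in the interaction and 3071 within cells with POU5F1. With no gene filter 831, 498, 1904, 1470, 344 and 531 were called in those intervals and 11257 from D0 to D15. With only the 4 pools the counts were 0 (D0 to D3), 27 (D3 to D5), 162 (D5 to D7), 1067 (D9 to D11), 0 (D11 to D13) and 0 (D13 to D15). Aliquot 1 alone gave 143 (D5 to D7), 332 (D9 to D11), 2 (D11 to D13) and 2 (D13 to D15), and aliquot 2 alone 291 (D3 to D5). From D11 to D13 the count was 25 with DESeq2's size factors and 3 with 2500 cells per day, which gave 3 from D13 to D15. Leaving out pools gave 1444 to 3921 (D0 to D3), 229 to 552 (D3 to D5), 28 to 341 (D5 to D7), 309 to 1216 (D7 to D9), 67 to 741 (D9 to D11), 0 to 109 (D11 to D13), 0 to 382 (D13 to D15), 0 to 1 (interaction) and 139 to 3482 (within cells with POU5F1). The causes were not tested. By Spearman's rho, 7 of the 21 genes most like a member were the same.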
